A study of Mus musculus with 7 samples.

Results

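The IFITM family encodes small interferon-induced transmembrane proteins, and its 4 members described here are Ifitm1, Ifitm2, Ifitm3 and Ifitm6, taken as the rows of those symbols among the 19415 genes listed in any of 7 single-cell UMI tables of mouse atypical teratoid/rhabdoid tumours (ATRT). All 4 are listed in all 7 tables, and 3 further IFITM genes (Ifitm5, Ifitm7 and Ifitm10) are used for comparison. The members were taken by symbol, the cells of each class were chosen by their measured marker UMIs, and the family was selected with results of these data known, so the tests below measure the differences and are no independent evidence for them. The tumours came from Rosa26-creERT2::Smarcb1 fl/fl mice, in which a Cre recombinase under a ubiquitous promoter deletes the chromatin remodelling subunit Smarcb1 after tamoxifen. Every group shared that genotype and a maternal tamoxifen dose of 50 mg/kg at 6.5 days post coitum, and no untreated or healthy group is among the libraries used here. The MYC subgroup has 5 libraries from 4 animals aged 12, 19, 21 and 27 weeks, because replicates 2 and 3 were counted as 1 animal from a number common to their titles, which the labels do not explain. Its tumours lay in the basal cerebrum (replicates 1 and 5), the trigeminal nerve (replicates 2 and 4) and the lateral cerebellum (replicate 3). The SHH subgroup has 2 libraries from 2 animals aged 14 and 16 weeks, both from the striatum and subventricular zone, so that subgroup and site cannot be told apart. Nothing in the labels names separate litters or cultures beyond the animals.

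IFITM proteins sit in the plasma membrane and in endosomal and lysosomal membranes, where they hinder the fusion of enveloped viruses with the cell. Ifitm1, Ifitm2 and Ifitm3 are known as interferon-stimulated genes that many cells also express at a basal level, and Ifitm6 is known as a gene of neutrophils and other myeloid cells. Ifitm5 is best known from bone-forming cells.

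The 4 members and Ifitm5 lie within 69.0 kb of chromosome 7 (GRCm38, GENCODE annotation, bases 140948958 to 141017924). Ifitm2 spans 140954837 to 140955987 on the minus strand, Ifitm1 140967221 to 140969825 on the plus strand, Ifitm3 141009586 to 141010770 on the minus strand and Ifitm6 141015699 to 141017924 on the minus strand. Their promoters are printed because the members differ in the interferon motif letters found there while they were measured side by side in the same cells. Each window runs from 250 bases before to 50 bases after the RefSeq start (build GRCm38.p6), 5′ to 3′ on the strand of the gene. Capitals mark matches, on either strand, to the interferon-stimulated response element letters GAAANNGAAA (TTTCNNTTTC on the other strand) or to the gamma-activated site letters TTCNNNGAA.
Ifitm1 (chr7:140967826-140968125, plus strand): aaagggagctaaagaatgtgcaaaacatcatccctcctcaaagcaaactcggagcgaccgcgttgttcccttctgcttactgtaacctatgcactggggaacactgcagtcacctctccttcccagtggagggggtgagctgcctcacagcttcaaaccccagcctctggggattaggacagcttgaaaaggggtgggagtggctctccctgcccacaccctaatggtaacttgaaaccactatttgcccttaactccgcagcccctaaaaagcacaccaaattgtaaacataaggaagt
Ifitm2 (chr7:140955912-140956211, minus strand): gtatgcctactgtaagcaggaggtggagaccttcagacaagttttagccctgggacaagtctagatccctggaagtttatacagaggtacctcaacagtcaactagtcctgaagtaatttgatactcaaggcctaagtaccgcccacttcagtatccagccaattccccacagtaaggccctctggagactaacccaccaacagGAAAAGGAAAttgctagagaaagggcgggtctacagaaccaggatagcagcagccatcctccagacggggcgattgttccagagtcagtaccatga
Ifitm3 (chr7:141010695-141010994, minus strand): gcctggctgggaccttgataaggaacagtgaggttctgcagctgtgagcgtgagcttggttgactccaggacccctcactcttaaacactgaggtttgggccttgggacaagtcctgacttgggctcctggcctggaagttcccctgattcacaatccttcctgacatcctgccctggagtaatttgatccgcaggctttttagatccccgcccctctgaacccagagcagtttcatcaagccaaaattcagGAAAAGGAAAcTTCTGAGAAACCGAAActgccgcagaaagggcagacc
Ifitm6 (chr7:141016843-141017142, minus strand): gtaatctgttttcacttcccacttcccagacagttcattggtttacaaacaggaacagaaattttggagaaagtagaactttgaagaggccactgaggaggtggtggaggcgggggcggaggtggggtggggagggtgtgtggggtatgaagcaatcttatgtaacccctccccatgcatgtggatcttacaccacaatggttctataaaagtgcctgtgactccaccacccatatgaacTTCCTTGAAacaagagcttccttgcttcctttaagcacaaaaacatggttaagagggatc
The Ifitm2 window held 1 GAAANNGAAA match, at positions -46 to -37 counted from the start base as position 0. The Ifitm3 window held 2, at positions 2 to 11 and 19 to 28, and 1 TTCNNNGAA match at 13 to 21 that overlaps the second of them. The Ifitm6 window held 1 TTCNNNGAA match at positions -10 to -2, and the Ifitm1 window held neither set of letters. For Ifitm1 and Ifitm6 the outermost annotated 5′ ends, at 140967221 and 141017924, lie upstream of these windows. The bases around those ends were not searched. Of 32851 promoter windows of the same length, 3.44% held GAAANNGAAA and 8.3% held TTCNNNGAA. A match is a description of letters and was not tested as a binding site.

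The tables hold 24433 barcodes and 143274671 UMIs, of which MYC replicate 5 alone gave 111985990 and the other libraries 2150925 to 9771059. The study states 24199 cells, and 21899 cells remained here after filters and the removal of 2039 doublets. Cells were sorted into classes by raw marker UMIs with no IFITM gene among the markers: 8312 tumour-candidate cells (at or under 0.1% haematopoietic UMIs and no other panel met), 5674 macrophages, 1999 T cells, 319 monocytes and smaller classes. The deleted gene Smarcb1 stood at 20.7 to 54.7 CPM (UMIs of the gene in 1000000 UMIs of the class) in macrophages of all 7 libraries. In tumour-candidate cells it stood at 0.927 to 14.5 CPM in the MYC libraries and at 9.25 and 1.23 CPM in the SHH libraries, and the difference of macrophages against tumour-candidate cells passed the test (edgeR adjusted p = 0.00015, log2 difference 4.23 ± 0.47 SE, macrophages higher in 6 of 6 animals). The 3′ tag may lie outside the deleted part, which the sources used here do not give. Of the barcode sequences, 230 occurred in more than 1 library and 0 in both MYC replicates 2 and 3. MYC replicate 5 stands apart in depth, and a set of 8 tumour genes (Msln, Timp1, Col1a1, Col1a2, Tm4sf1, Krt8, Krt18 and Wfdc2) stood in its T cells at 35.3% and in its macrophages at 21.6% of the level in its tumour-candidate cells, against 0.583% to 3.98% in these classes of the other MYC libraries.

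Tumour-candidate cells of MYC tumours carried far more Ifitm2 and Ifitm3 transcripts than those of SHH tumours, and both genes passed the test over all genes. Ifitm3, the family's best studied antiviral member, stood at 4136, 4629, 3489.8, 4445 and 4275 CPM in MYC replicates 1 to 5, against 180.1 and 649.5 CPM in SHH replicates 1 and 2. The 5 MYC tumours lay close together and every one stood above both SHH tumours. Summed per animal and scaled by TMM, Ifitm3 averaged 4376 ± 536 CPM in MYC animals and 380.4 ± 310.4 CPM in SHH animals (SD, n = 4 and 2), a log2 fold change of 3.59 ± 0.61 SE (edgeR adjusted p = 0.0252). Ifitm2, a close relative found mainly in endosomes, stood at 1490.1, 3525, 2824, 2424 and 1273 CPM in the MYC libraries, against 16.4 and 83.8 CPM in the SHH libraries. Its groups did not overlap either, and its log2 fold change was 5.58 ± 0.87 SE (2104 ± 695 against 46.0 ± 44.4 TMM-scaled CPM, edgeR adjusted p = 0.0214). Of 10005 genes tested in tumour-candidate cells 6.08% were called in either direction, with 3.14% called higher in MYC tumours and 2.94% lower. Without either SHH animal, which leaves 1, neither gene was called: the adjusted p of Ifitm2 was 0.106 and 0.064, and that of Ifitm3 0.106 and 0.0607, with log2 fold changes of 2.88 to 7.16. Without MYC replicate 5 the adjusted p was 0.0426 for Ifitm2 and 0.0513 for Ifitm3.

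Ifitm1, the member found mostly at the cell surface, varied most between MYC tumours. It stood at 439.5, 930.2, 12.5, 885 and 1338 CPM in MYC replicates 1 to 5, against 2.14 and 95.9 CPM in SHH replicates 1 and 2. The low MYC value is the cerebellar tumour, replicate 3, which fell below SHH replicate 2, while the trigeminal tumour taken as the same animal, replicate 2, was among the high ones. Ifitm2 and Ifitm3 did not show that gap between the same 2 tumours. Over animals the Ifitm1 difference did not pass the test (785 ± 590.2 CPM in MYC animals and 45.2 ± 61.3 CPM in SHH animals, edgeR adjusted p = 0.157, log2 fold change 4.16 ± 1.5 SE), and only DESeq2 among the alternatives called it (adjusted p = 0.00398).

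Ifitm6 was low in the tumour-candidate cells of every tumour. It stood at 7.42, 25.3, 0, 20.6 and 16.9 CPM in MYC tumour-candidate cells, against 0 UMIs in both SHH libraries. Ifitm6 had 807 UMIs in 6816 MYC cells, 783 of them in the 6505 cells of MYC replicate 5. It had none in 1496 SHH cells, where 3 counts over the group would be 0.548 CPM. The mean of MYC animals (12.7 ± 7.12 CPM, SD, n = 4) was thus at least 23.3-fold higher. This limit was 5.97 without SHH replicate 2 and 17.3 to 27.3 without any other animal. The gene passed the filter on low values only through the MYC group, so its edgeR adjusted p of 0.0285 is a description and supports nothing. The neutrophil marker list moved with it: 2 to 7 of its 9 genes were seen in MYC tumour-candidate cells, at 4.58 to 192 CPM summed, against 1 and 0 of 9 genes at 0.712 and 0 CPM in SHH tumour-candidate cells. In the MYC libraries Camp was seen in all 5, Csf3r and Mmp8 were at 0 in 4, and Cxcr2, Ly6g and Ngp in 3. The part of these markers in the Ifitm6 result was not tested. Monocyte markers stood at 16.0 to 431 CPM in MYC and at 27.8 and 28.5 CPM in SHH tumour-candidate cells, with F13a1 at 0 in 4 MYC and both SHH libraries. Its adjusted p was above 0.05 without MYC replicate 4 (0.0506), without SHH replicate 1 or 2 (0.164 and 0.226), with 7 libraries as samples (0.0764) and with sequencing runs as a covariate (0.0505), and without MYC replicate 5 the gene was too low to be tested.

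Macrophage markers were not higher in MYC tumour-candidate cells than in both SHH libraries. They stood in tumour-candidate cells at 10.9 to 119.9 CPM in the MYC libraries, with 2 to 6 of 6 genes seen, against 241 and 52.1 CPM in the SHH libraries, with all 6 seen. Over animals, Ifitm2 and Ifitm3 stood higher in MYC animals than in both SHH animals, as had 15.5% of all genes tested in tumour-candidate cells. Ifitm1 and Ifitm6 did too, but Ifitm6 passed the filter on low values only through the MYC group. Ifitm1, low in SHH replicate 1, would not have passed it on the SHH animals alone.

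**Figure D1:**
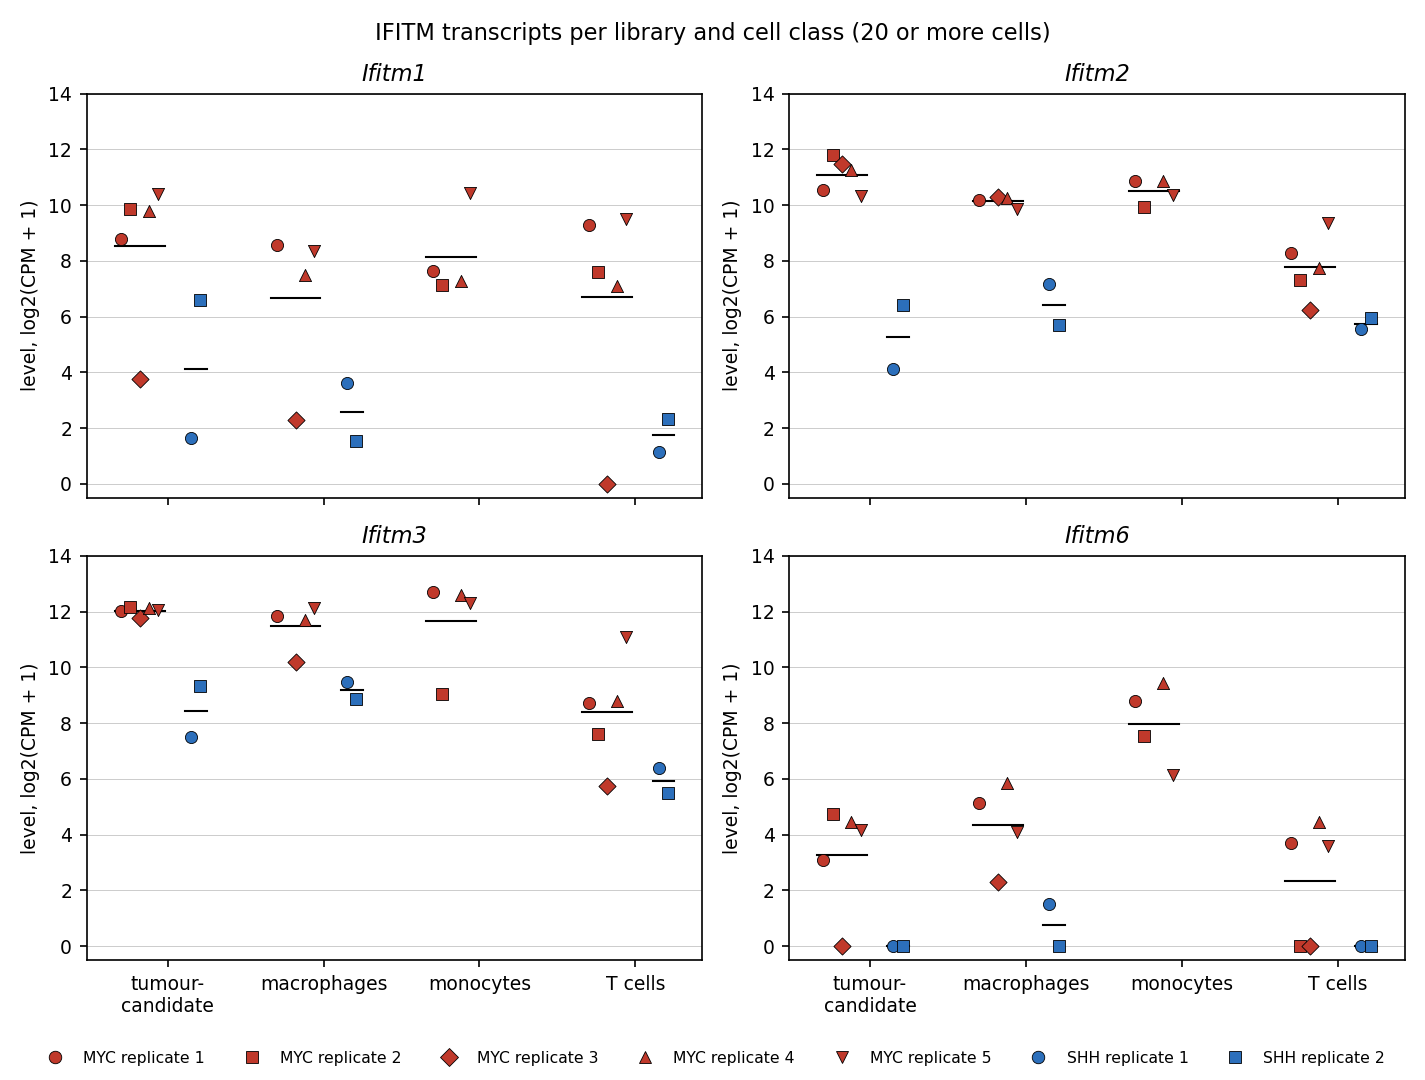
Levels of the 4 IFITM members, as log2(CPM + 1), in 4 cell classes of the MYC libraries (red, left of each class) and SHH libraries (blue, right), for sums of 20 or more cells. Each symbol is a library and each bar the mean over libraries. Ifitm3 in MYC tumour-candidate cells lies between 3489.8 and 4629 CPM in all 5 libraries, whereas Ifitm1 ranges from 12.5 to 1338 CPM.

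The members also differed in how many tumour-candidate cells held them. With every cell thinned to 1000 UMIs, 80.8% to 90.8% of MYC tumour-candidate cells had an Ifitm3 UMI, against 9.09% (95% Wilson interval 6.80 to 12.1) and 25.1% (22.6 to 27.9) in SHH replicates 1 and 2. Unthinned, these shares were 88.5% to 100% in MYC libraries and 16.0% and 39.0% in SHH libraries. Ifitm2 was seen in 59.6% to 82.4% of thinned MYC cells, against 1.30% and 5.13% of SHH cells. Ifitm1 was seen in 24.8%, 25.5%, 0%, 33.3% and 46.4% of MYC cells, against 0.216% and 3.68% of SHH cells, and in MYC replicate 3 none of 73 cells had one at that depth, where 8 of them had one unthinned. In thinned T cells of the same tumours Ifitm3 was seen in 0% to 24.4% of cells in MYC replicates 1 to 4 and in 58.3% in MYC replicate 5, against 5.79% and 3.33% in the SHH libraries. Median depths were 2847 to 11646 UMIs per tumour-candidate cell and 1300 to 4705 UMIs per T cell, and the Wilson interval of Ifitm3 in tumour-candidate cells of SHH replicate 1 overlapped that of its T cells (3.95 to 8.40).

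**Figure D2:**
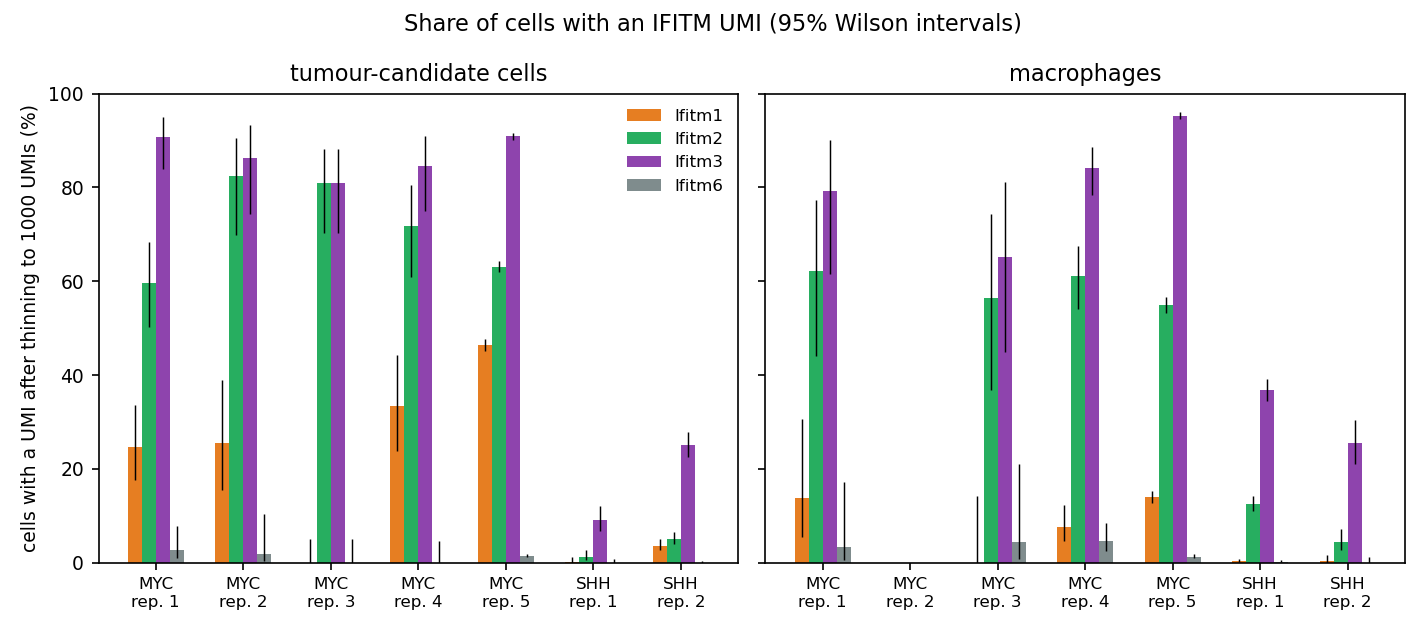
Percent of tumour-candidate cells (left) and macrophages (right) with a UMI of each IFITM member after thinning every cell to 1000 UMIs, per library, MYC libraries left of SHH libraries. Error bars are 95% Wilson intervals, which cover counting error only, and classes with under 20 cells are left out. Ifitm3 is seen in 80.8% or more of tumour-candidate cells in each MYC library.

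At a similar summed level, on a scale that counts each 3′ tagged transcript once whatever its length, Ifitm1 was held by fewer cells than Ifitm2. In MYC replicate 5, with 6505 tumour-candidate cells, Ifitm1 stood at 1338 CPM and Ifitm2 at 1273 CPM, but 46.4% of thinned cells had an Ifitm1 UMI and 63.1% an Ifitm2 UMI. The tenth of these cells highest in Ifitm1 held 51.2% of its thinned UMIs, and the tenth highest in Ifitm2 held 34.5% of its UMIs. Ifitm2 was seen in 76.0% of the cells with an Ifitm1 UMI and in 51.9% of those without. These cells share 1 library, and the correlation of the 2 genes over them was weak (Pearson r = 0.35).

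In macrophages Ifitm2 was the member that passed the test. It stood at 1169.6, 2162, 1258, 1230.4 and 926 CPM in MYC replicates 1 to 5, against 142 and 50.4 CPM in SHH replicates 1 and 2. The MYC value of replicate 2 rests on 10 cells, and each MYC library stood above both SHH libraries. The log2 fold change was 3.41 ± 0.54 SE (1118 ± 156 against 107 ± 75.7 TMM-scaled CPM, n = 4 and 2, edgeR adjusted p = 0.0275), in a class where only 0.584% of 7017 genes were called and 0.328% were called higher in MYC tumours. The adjusted p was 0.044 without MYC replicate 5, the library with most tumour transcripts in its macrophages, and the part of these transcripts in the difference was not tested. The call was lost without MYC replicate 4 (adjusted p = 0.0587), without SHH replicate 1 or 2 (0.17 and 0.222) and with sequencing runs as a covariate (0.0666). DESeq2 called all 4 members in macrophages, as did edgeR without MYC replicates 2 and 3, where the adjusted p was 0.00811 for Ifitm1, 0.0153 for Ifitm3 and 0.0317 for Ifitm6. DESeq2 called 312 genes in this class, no edgeR fit without 1 animal called more than 171, and the 0.584% above belongs to the main edgeR fit alone. In both fits that called all 4 members, Ifitm1 and Ifitm6 would not have passed the filter on low values on the SHH animals alone.

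Ifitm3 stood at 3705, 1466, 1153, 3287 and 4520.3 CPM in MYC macrophages, against 717 and 459.6 CPM in SHH macrophages. The groups did not overlap, and the difference did not pass the test (log2 fold change 2.26 ± 0.59 SE, edgeR adjusted p = 0.129). Ifitm1 stood at 3.91 to 377 CPM in MYC and at 11.1 and 1.90 CPM in SHH macrophages (adjusted p = 0.0962), again lowest among MYC tumours in replicate 3. Ifitm6 stood at 0 to 56.0 CPM in MYC and at 1.86 and 0 CPM in SHH macrophages (adjusted p = 0.126). The library of replicate 3 lay below SHH replicate 1 in Ifitm1. Over animals Ifitm2 and Ifitm3 were higher in MYC than in both SHH animals, against 8.66% of all genes tested in macrophages. Ifitm1 and Ifitm6 were too, but they passed the filter on low values only through the MYC group. In MYC replicate 5 macrophages, where the tumour genes stood at 21.6% of their tumour level, Ifitm1 stood at 24.5%, Ifitm2 at 72.7% and Ifitm3 at 106% of the level in tumour-candidate cells. In MYC replicate 4, where the tumour genes stood at 1.03%, Ifitm2 stood at 50.8% and Ifitm3 at 73.9% of the tumour level.

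Macrophages with microglia marker UMIs also held Ifitm2 and Ifitm3 in MYC tumours. In MYC replicate 5, with 2119 such cells, Ifitm2 stood at 852 CPM and Ifitm3 at 4421 CPM, against 127 and 681 CPM in 1461 cells of SHH replicate 1. Ifitm1 was lower in macrophages with microglia UMIs than in those without in 5 of 7 libraries. It stood at 229.7 CPM in 2119 cells with them, against 624 CPM in 550 cells without, in MYC replicate 5, and at 0 CPM in 20 cells, against 239 CPM in 149, in MYC replicate 4. In SHH replicate 1 it stood at 1.07 CPM in 1461 cells with them, against 174 CPM in 164 without. MYC replicates 2 and 3 had 0 UMIs in 4 and 12 cells with them, against 5 UMIs in 3 cells and 1 UMI in 7 cells without. The other 2 libraries rested on 1 UMI in 6 cells without them (MYC replicate 1, 532 CPM in 19 cells with them) and on 0 UMIs in 38 cells without them (SHH replicate 2, 1 UMI in 282 cells with them). These are values of single libraries, and the difference was not tested.

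In T cells no member was called. Ifitm1 stood at 621, 193, 0, 135 and 723 CPM in MYC libraries, against 1.20 and 4.04 CPM in SHH libraries (log2 fold change 7.62 ± 1.35 SE, edgeR adjusted p = 0.145). Ifitm2 averaged 331 ± 259.8 CPM in MYC and 51.2 ± 6.30 CPM in SHH animals (adjusted p = 0.574), and Ifitm3 829 ± 1019 and 62.3 ± 30.3 CPM (adjusted p = 0.903). Over animals the 3 members tested did not overlap between the groups, against 6.01% of genes with MYC animals above, and Ifitm6 was too low to be tested. Of these 3, Ifitm1 passed the filter on low values only through the MYC group. In T cells 1 of 6270 genes was called (0.0159%), by edgeR, with 270 at an unadjusted p under 0.05 and 30 by DESeq2. Without the filter on low counts, in a fit that Ifitm6 also entered, edgeR called 70 genes, among them Ifitm1, Ifitm2 and Ifitm3. Its adjusted p was 0.00767 for Ifitm2 and 0.00532 for Ifitm3. DESeq2 called Ifitm1 and Ifitm2. The Ifitm3 level of 2193 CPM in MYC replicate 5, against 52.8 to 445 CPM in the other MYC libraries, came from the library whose T cells held tumour genes at 35.3% of the tumour level, and the part of these transcripts was not tested. Its Ifitm1, Ifitm2 and Ifitm3 stood at 54.1%, 51.8% and 51.3% of the tumour level.

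Whether the subgroup difference was larger in tumour-candidate cells than in macrophages was tested as an interaction within animals. No member was called, with an extra log2 difference of 2.25 ± 0.90 SE for Ifitm2 (edgeR adjusted p = 0.238), 1.68 ± 0.77 for Ifitm3 (0.304), 0.81 ± 1.62 for Ifitm1 (0.871) and 4.22 ± 2.68 for Ifitm6 (0.484). Of 10884 genes 3.64% were called, 2.82% with a larger MYC excess in tumour-candidate cells and 0.818% with a smaller one. The extra log2 difference of Ifitm2 was 4.43 without SHH replicate 2, which leaves 1 SHH animal. The lowest value without 1 animal was 0.47. Without the filter on low counts Ifitm2 was called (2.45, edgeR adjusted p = 0.0082), in a fit that called 885 genes. With all cells of a tumour summed, no member was called either (adjusted p of 0.0796 for Ifitm2, 0.14 for Ifitm3, 0.21 for Ifitm1 and 0.342 for Ifitm6), in a comparison in which 1 of 13308 genes was called by edgeR (0.00751%), 1544 had an unadjusted p under 0.05 and DESeq2 called 790, among them all 4 members. Ifitm1, Ifitm2 and Ifitm3 stood higher in MYC animals than in both SHH animals, as did 9.12% of all genes. Ifitm6 did too, but it would not have passed the filter on low values on the SHH animals alone, which also limits its DESeq2 call.

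**Figure D3:**
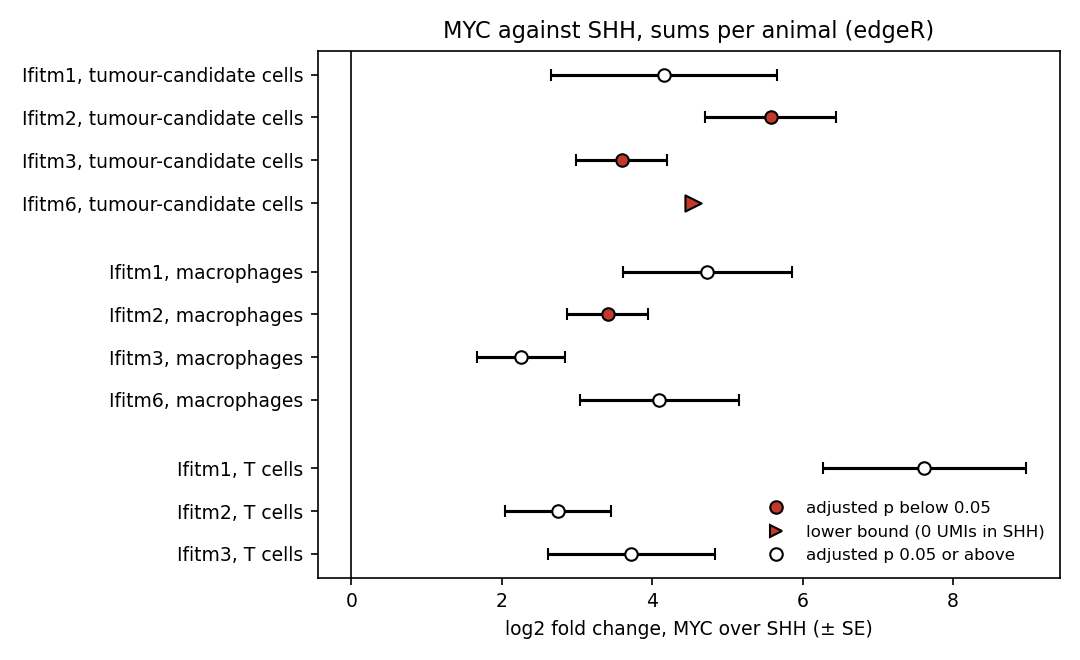
Log2 fold changes of the IFITM members, MYC over SHH, in sums per animal of 3 cell classes, with standard errors from edgeR. Filled circles passed an adjusted p of 0.05 and open circles did not. Ifitm6 in tumour-candidate cells, with 0 UMIs in SHH animals, is drawn as a lower bound of 23.3-fold and passed the filter only through the MYC group. All values lie above 0, and the filled circles are Ifitm2 and Ifitm3 in tumour-candidate cells and Ifitm2 in macrophages.

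Between cell classes the order of levels differed by member. In MYC animals Ifitm3 averaged 4609 CPM in monocytes (527 to 6674), 4155 CPM in tumour-candidate cells (3763 to 4445), 3177 CPM in macrophages (1195.5 to 4520.3) and 791 CPM in T cells (105 to 2193, 4 animals each). Each neighbouring pair of these ranges overlapped. Dendritic cells lay at 1890.2 and 2219 CPM in MYC replicates 4 and 5, and plasmacytoid dendritic cells, B cells and natural killer cells of MYC replicate 4 at 148, 118 and 296 CPM. In SHH animals the order of means was dendritic cells (858 CPM, 1 library), macrophages (588 CPM), tumour-candidate cells (415 CPM) and T cells (63.0 CPM), among classes of 20 or more cells. Macrophages stood above tumour-candidate cells in SHH replicate 1 (717 against 180 CPM) and below them in SHH replicate 2 (459.6 against 649.5 CPM). The 19 monocytes of SHH replicate 1 held more than these classes, 5236 CPM of Ifitm3 (209 UMIs), which lies within the MYC monocyte range, beside 1127 CPM of Ifitm2 and 251 CPM of Ifitm6. Ifitm2 in MYC animals was highest in tumour-candidate cells (2045 CPM, 1273 to 2992), then monocytes (1505 CPM, 971 to 1872), macrophages (1177 CPM, 926 to 1381) and T cells (321 CPM, 105 to 659.7), and neighbours in this order overlapped except macrophages and T cells. In SHH animals Ifitm2 was lower in tumour-candidate cells (50.1 CPM) than in macrophages (96.2 CPM) with overlapping ranges.

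Within animals, macrophages did not differ from tumour-candidate cells by the test in any member, in a comparison in which 40% of 10884 genes were called. The log2 difference was -0.04 ± 0.54 SE for Ifitm2 (edgeR adjusted p = 0.966), 0.09 ± 0.45 for Ifitm3 (0.889), -1.65 ± 0.77 for Ifitm1 (0.115) and 1.10 ± 0.56 for Ifitm6 (0.153). Ifitm2 was higher in macrophages in 1 of 6 animals, SHH replicate 1, and lower in all 4 MYC animals. Ifitm1 was higher in macrophages in 1 of 6 animals, and it was called lower without SHH replicate 1 (-2.17, adjusted p = 0.0218). T cells were lower than macrophages in Ifitm3 (log2 difference -3.09 ± 0.32 SE, edgeR adjusted p = 4.89e-05) and Ifitm2 (-1.98 ± 0.39, adjusted p = 0.00277), each in all 6 animals. In this comparison 18% of 8116 genes were called lower, 14.6% higher and 32.6% in either direction. Ifitm6 was lower in T cells in 5 of 6 animals (-1.37 ± 0.40, edgeR adjusted p = 0.0253), since SHH replicate 2 had 0 UMIs in both classes. On its T cell values alone Ifitm6 would not have passed the filter on low values, so its adjusted p is a description. Ifitm1 did not differ by the test (0.15 ± 0.43, adjusted p = 0.837). The Ifitm6 call was lost without MYC replicate 1 (adjusted p = 0.0545) and without SHH replicate 1 (0.0726), and could not be tested without MYC replicate 4.

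Ifitm6 marked monocytes and neutrophils. It stood at 437, 183, 688 and 69.1 CPM in monocytes of MYC replicates 1, 2, 4 and 5, against 34.3, 56.0 and 16.2 CPM in macrophages of MYC replicates 1, 4 and 5 and 3.91 CPM in those of replicate 3. Over 4 MYC animals, each with monocytes above macrophages, the log2 difference was 3.29 ± 0.46 SE (330.3 ± 261 against 29.3 ± 26.0 TMM-scaled CPM, edgeR adjusted p = 0.0245), where 1.14% of 5443 genes were called 0.349% higher and 0.79% lower. The other 3 members were not called (adjusted p of 0.691 to 0.938). The Ifitm6 call was lost without MYC replicate 1 (adjusted p = 0.134) or 4 (0.23). Monocyte sums also held neutrophil markers, 3 to 9 of 9 genes at 24.5 to 407 CPM, against 3 to 7 of 9 genes at 27.8 to 4260 CPM in macrophages of the MYC libraries with 20 or more cells. In MYC replicate 5 the tumour genes stood in monocytes at 97.9% of their level in tumour-candidate cells. Neutrophils held 3387 CPM of Ifitm6 in 172 cells of MYC replicate 2, and 5114 and 1875 CPM in 10 cells each of MYC replicates 1 and 4.

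In neutrophils Ifitm3 stood at 557 CPM in the 172 cells of MYC replicate 2, and at 2974 and 5556 CPM in those 10-cell sums. MYC replicate 2 was also low in monocytes, at 527 CPM of Ifitm3 against 5064 to 6674 CPM in the other MYC libraries. Ifitm1 reached 19728 CPM in 4 mast cells or basophils of MYC replicate 4, 2718 CPM in 9 of MYC replicate 2 and 1161 CPM in 5 of SHH replicate 1, numbers too small for a test. Endothelial cells had 20 or more cells in MYC replicate 5 alone, where 44 cells held 3278 CPM of Ifitm3, 1025 CPM of Ifitm1 and 921 CPM of Ifitm2. The 95 cells gated as mature glia in MYC replicate 5 held 3819 CPM of Ifitm3 but only 5.40 CPM of Smarcb1, and the 41 of SHH replicate 1 held 24.5 CPM of Ifitm3 and 81.7 CPM of Smarcb1, so the name is not used for the MYC cells.

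Other interferon genes were read beside the family. In tumour-candidate cells 22 of 30 tested interferon-stimulated genes were higher in MYC tumours and 0 lower, with a median log2 fold change of 4.57, against 0.04 over all genes, of which 3.14% were called higher. Among them the interferon regulatory factor Irf7 stood at 215 ± 197 CPM in MYC animals and 2.18 ± 0.514 CPM in SHH animals (edgeR adjusted p = 0.03, log2 fold change 6.72 ± 1.24 SE), Ifit3, of the Ifit antiviral family, at 196 ± 178 and 2.48 ± 1.90 CPM, the nucleic acid sensor Zbp1 at 75.0 ± 55.5 and 1.07 ± 1.19 CPM, and Slfn2, a Schlafen gene, at 66.1 ± 48.1 and 0.863 ± 0.578 CPM. Of 16 tested interferon-gamma targets 9 were higher, led by the immunity-related GTPase genes Iigp1 (124 ± 62.2 and 0.772 ± 0.193 CPM) and Ifi47 (51.3 ± 30.2 and 0.636 ± 0.899 CPM). Irf7, Ifit3, Zbp1, Slfn2, Iigp1 and Ifi47 passed the filter on low values only through the MYC group, so their calls are descriptions. The counts of 22 and 9 include them, and how many other genes of these lists did so was not counted. Of 13 genes of MHC class I presentation 11 were higher, among them H2-K1 (839.95 ± 441 and 67.1 ± 44.5 CPM) and the immunoproteasome subunit gene Psmb8 (409 ± 275 and 13.6 ± 10.5 CPM), and H2-T23 and H2-Q7, whose close relatives can share reads.

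In macrophages none of these lists had a called member by edgeR: 0 of 35 interferon-stimulated genes, 0 of 16 interferon-gamma targets and 0 of 13 MHC class I genes, with median log2 fold changes of 1.34, 0.50 and 0.11 against 0.05 over all genes. Only 0.328% of all genes tested in macrophages were called higher. The log2 fold change was above 0 for 35 of 35, 16 of 16 and 9 of 13 genes of these lists. The values of Ifitm2, Ifitm1, Ifitm6 and Ifitm3 in the same cells were 3.41, 4.74, 4.10 and 2.26. In the interaction, 18 of 35 interferon-stimulated genes, 9 of 20 interferon-gamma targets and 12 of 13 MHC class I genes had a larger MYC excess in tumour-candidate cells than in macrophages, against 2.82% of all genes, in the fit in which none of the 4 IFITM members was called. B2m, the MHC class I light chain, had an extra log2 difference of 4.02 ± 0.56 SE (edgeR adjusted p = 0.00464), and Iigp1 of 5.94 ± 0.78 (0.00408). In T cells 0 of 33 interferon-stimulated genes were called, with a median log2 fold change of 1.08. All 33 lay above 0, in a class where 0 of 6270 genes were called higher.

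**Figure D4:**
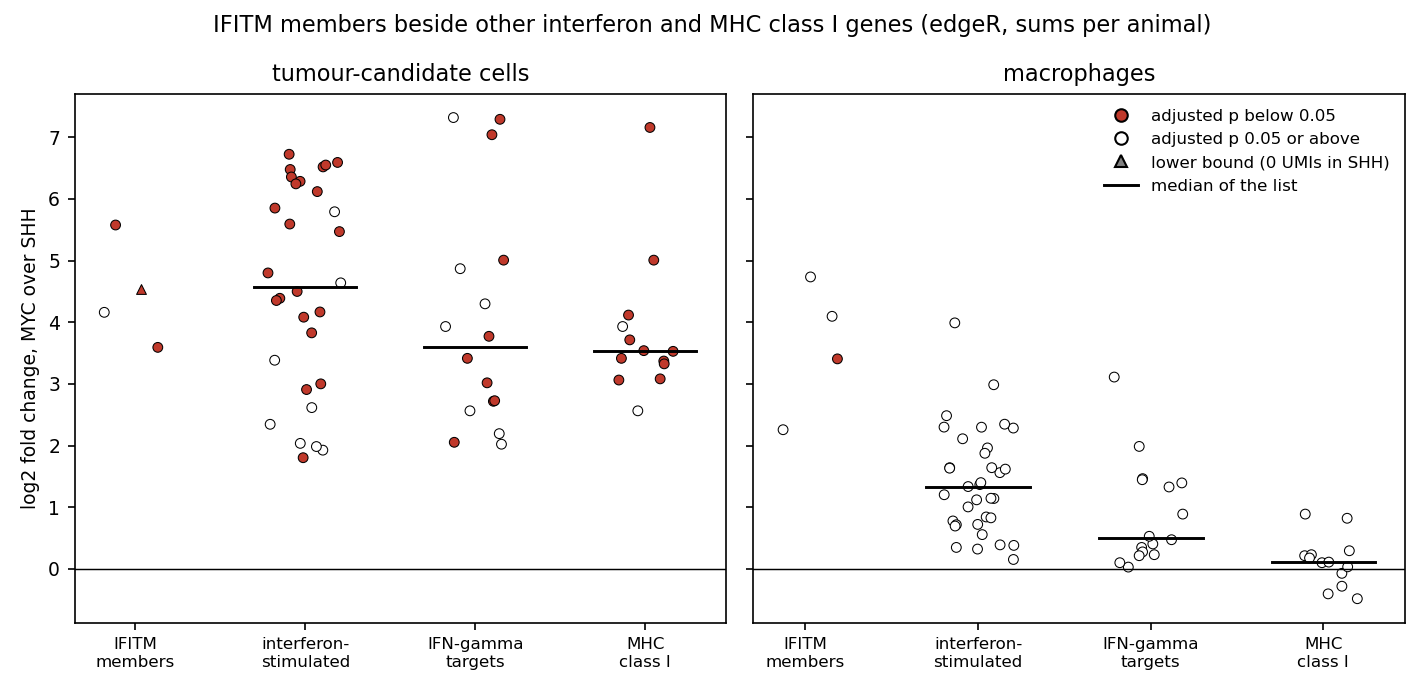
Log2 fold changes, MYC over SHH, of the IFITM members beside 3 gene lists, in tumour-candidate cells (left) and macrophages (right). Red symbols passed an adjusted p of 0.05 (edgeR), a triangle is a lower bound for a gene with 0 UMIs in SHH, and bars are list medians. In tumour-candidate cells 22 of 30 interferon-stimulated genes are red, and in macrophages Ifitm2 is the sole red symbol of those drawn.

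The ligands and receptors showed little. Of 10 interferon genes none could be tested in tumour-candidate cells or macrophages, and Ifng was higher in T cells than in macrophages (34.8 ± 20.5 and 1.29 ± 1.88 TMM-scaled CPM, log2 difference 3.87 ± 0.56 SE, edgeR adjusted p = 0.000394). Ifng passed the filter on low values only through the T cells, so its adjusted p is a description. Of 7 tested receptor and kinase genes 1 was higher in MYC tumour-candidate cells, Il10rb, a shared chain of the interferon-lambda and interleukin-10 receptors, (log2 fold change 2.95 ± 0.51 SE, adjusted p = 0.0265), which is named because it was the one called. Of 9 tested genes flanking the Ifitm cluster 1 was higher in MYC tumour-candidate cells, the ribonuclease inhibitor gene Rnh1 (287 ± 94.7 and 50.7 ± 16.9 CPM, log2 fold change 2.56 ± 0.45 SE, adjusted p = 0.0268), and the list's median was 0.10. None of 7 tested genes for proteins that bind, modify or resemble IFITM proteins was called, with a median of 0.27.

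The other IFITM genes were rare. Ifitm7, on chromosome 16, stood at 32.5, 3.62, 21.7, 0 and 0.604 CPM in MYC tumour-candidate cells, against 1.42 and 0.492 CPM in SHH tumour-candidate cells (log2 fold change 4.18 ± 1.99 SE, edgeR adjusted p = 0.257). MYC replicates 1 and 3 were high and the other MYC libraries overlapped the SHH ones. Ifitm5 had 110 UMIs in all cells, all from MYC libraries, and Ifitm10 had 221. Ifitm10 was higher in T cells than in macrophages in 6 of 6 animals (18.2 ± 13.8 and 5.29 ± 5.07 TMM-scaled CPM, log2 difference 1.56 ± 0.43 SE, edgeR adjusted p = 0.0176). It passed the filter on low values only through the T cells, so this p is a description.

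Ifitm1, Ifitm2 and Ifitm3 followed each other across classes and animals. Over 33 sums of a class in an animal, and among 7611 genes with a level of 50 CPM or more in any sum, the gene most like Ifitm2 was Ifitm3 (Pearson r of log2(CPM + 1) = 0.90) and the gene most like Ifitm1 was Ifitm2 (r = 0.85), followed by Ifitm3, Lsr, Ddx60 and Shc1. After its 2 relatives Ifitm2 was most like Tubb6, Ier3 and Cdkn1a, and Ifitm3 was most like Ifitm2, Cdkn1a, Tubb6, Nfe2l2 and Ier3. Ifitm6 went with Hp (r = 0.84), Gda, Chil3, Tarm1 and Trem3, and Chil3 is one of the markers of the monocyte class. These sums share libraries and animals, and the values describe likeness alone. Of the 75-base stretches in annotated transcripts, 42% of those of Ifitm2 recur in a gene model with another name, none of which is among the other members, against 0.582% for Ifitm1, 0.662% for Ifitm3 and 0% for Ifitm6. Ifitm2 is thus the member whose counts could be most affected by shared stretches, also where it is set beside Ifitm1, and this was not tested.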

How the data were processed

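Single-cell 3′ RNA sequencing (10x Chromium) of 7 tumours was analysed. The deposited files hold raw UMI counts per gene and barcode, whole numbers without normalization, made with Cell Ranger 2.0.2 and build mm10 per the submitters' processing notes; per the labels, MYC replicate 5 and SHH replicate 1 were sequenced at 2 time points. Genes in fewer than 3 barcodes of a file are not listed in it and count as 0. Barcodes under 500 UMIs, under 200 genes or over 20% mitochondrial UMIs were dropped, and doublets were removed with Scrublet (scanpy 1.11.5) at 0.8% per 1000 cells. A cell met a marker panel with 3 or more UMIs of 2 or more of its genes, and one that met several without a clear lead was left as mixed.

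UMIs were summed per class and animal where 20 or more cells were present, and MYC replicates 2 and 3, whose titles share a number, were summed as 1 animal. Sums were tested with edgeR 4.0.16 (quasi-likelihood, TMM scaling, filterByExpr) and Benjamini-Hochberg adjustment over all genes, at 0.05. The p-values measure the spread between these animals. Alternatives were DESeq2 1.42.0, upper quartile scaling, no filter, stricter gates, doublets kept, 10 cells a sum, 7 libraries, a covariate for sequencing runs and each animal left out. The scripts were tested on simulated data. Wilson intervals at 95% and floors of 3 counts cover counting error only. For thinned shares, 683 cells under 1000 UMIs were left out.

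Members, lists and markers were chosen with earlier results of these data known. Named genes are the members, the other IFITM genes, Smarcb1, up to 4 called genes a list with the largest fold change among those of 20 CPM or more, and the 5 genes most like each member. A comparison of endothelial with tumour-candidate cells could not be fitted, because 1 animal had 20 or more endothelial cells.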

Additional observations from a re-analysis of the deposited data

Results flagged for a closer look

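Among 28 sets of 4 MYC animals (a member in a class), 6 held an animal whose gap to the nearest of the others, divided by the range, was above Dixon's 95% critical value for 4 values. Chance gives about 1 in 20.

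MYC replicate 5 stood apart in 3 of them. Its Ifitm1 level was 1394.69 CPM in monocytes, against 138 to 199 CPM in the other MYC animals, and 1124.8 CPM in mixed cells, against 266 to 399.7 CPM. Its Ifitm3 level was 2192.94 CPM in T cells, against 105 to 445 CPM. The tumour genes stood at 97.9% of their tumour level in these monocytes and at 35.3% in these T cells, and their part in the values was not tested.

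Ifitm6 over all cells was 855.301 CPM in the animal of MYC replicates 2 and 3, against 17.5 to 126 CPM, and MYC replicate 2 held 172 of the 193 neutrophils. In MYC replicate 4 Ifitm6 was 115.565 CPM in mixed cells, against 12.3 to 20.4 CPM, and 140.112 CPM in cells that met no panel, against 21.7 to 25.9 CPM.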

How the results depend on the processing

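Of 384 member fold changes recomputed, 330 kept their direction and side of the threshold, 18 lost a call, 21 gained one and 15 changed sign; the causes were not tested. No paired analysis was possible because the replicate numbers were given in accession order and pair no MYC with SHH animals, while comparisons of classes kept the animal as a block. The Ifitm6 limit without each animal, 5.97 to 27.3-fold, was chosen after seeing the data. DESeq2 called 4 members and 790 genes in all cells, 1540 genes in tumour-candidate cells, 4 members and 312 genes in macrophages, 2 and 30 in T cells, 595 genes in the interaction and 185 in monocytes against macrophages. Without the low-count filter the calls were 5 genes in all cells, 2 members and 137 genes in macrophages, 3 and 70 in T cells, 1 and 885 in the interaction, and 400 genes in monocytes. With 7 libraries as samples, 1 member and 36 genes were called in all cells and 5 genes in T cells. With sequencing runs as a covariate, 2 genes were called in all cells, 338 in tumour-candidate cells, 8 in T cells, and 0 members in macrophages. Stricter gates gave 85 genes in macrophages; doublets kept gave 2 genes in T cells and 252 in the interaction; 10 cells a sum gave 156 genes in monocytes. Leaving out 1 animal gave 0 to 2 genes in all cells, 0 to 3 members and 21 to 989 genes in tumour-candidate cells, 0 to 4 members and 1 to 171 genes in macrophages, 1 to 7 genes in T cells, 0 to 1 members and 98 to 788 genes in the interaction, 0 to 1 members and 2846 to 3982 genes in macrophages against tumour-candidate cells, and 0 to 1 members and 6 to 153 genes in monocytes. The sign changed in differences near 0 or without 1 animal. Ifitm2 in macrophages against tumour-candidate cells was 0.052 with DESeq2, 0.0565 without the filter and -0.44 to 0.28 without 1 animal, and Ifitm3 -0.23 to 0.52. Ifitm3 in monocytes was -0.14 to 0.55, Ifitm1 in T cells against macrophages -0.15 to 0.58, and in the interaction Ifitm1 was -3.25 to 4.87 and Ifitm6 -0.95 to 6.17. The SHH group has 2 animals, and without either one no member was called in tumour-candidate cells. Depth limits Ifitm6, whose 3-count floor over SHH tumour-candidate cells is 0.548 CPM.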
